A study of Mus musculus with 8 samples.

Results

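The 10 genes described here are growth cone and cytoskeleton regulators of immature olfactory sensory neurons: Gap43, Gng8, Stmn1, Stmn2, Stmn4, Dpysl3, Dpysl5, Crmp1, Marcksl1 and Dcx. They were taken by name from a table of polysome RNA levels, in which all 10 were present among 21765 gene rows, and all 10 were among the 16097 genes tested, those with a mean TPM of at least 1. TPM is the length-corrected share of a gene among 1000000 transcripts of a library. The libraries came from the main olfactory epithelium of mice. Tissue was put in cycloheximide (100 µg/mL), which holds ribosomes on their mRNA, at dissection, and lysates were spread on sucrose gradients. Early polysomes (fractions 27 to 34) carry fewer ribosomes per mRNA than late polysomes (fractions 35 to 42). Wild-type (WT) mice carried floxed Mex3a alleles (flox/flox or flox/+) and conditional knockout (cKO) mice carried Mex3a flox/flox with a Cre driver, whose line is not reported here. Mex3a encodes an RNA-binding protein. Genotype and fraction give 4 groups of 2 libraries each, and the early and late library of a replicate bear the name of the same lysate. The labels used here give no age and do not say how many animals made up a lysate, so p-values measure the spread between these lysates, which may be technical.

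The series text also describes sorted cells from mice with tetO transgenes, which the labels of these 8 libraries do not mention. Reads inferred from the TPM steps ranged from 7776792 (cKO late replicate 2) to 12771079 (WT late replicate 2) in a library. Mex3a lay between 93.2 and 115.6 TPM in the 4 WT libraries and between 11.1 and 19.8 TPM in the 4 cKO libraries. One label field of WT early replicate 2 gives the genotype as cKO, against the title. Mex3a was at 115.6 TPM there, and the library stayed in the WT group. Olfactory epithelium markers were high, with Omp, the marker of mature olfactory neurons, at a mean of 3618 TPM. These are whole-tissue lysates, so fewer cells of a type and less RNA per cell cannot be told apart, and no transcript can be assigned to immature neurons alone.

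Immature olfactory neurons grow an axon to the olfactory bulb before they express receptors at full strength and turn on Omp. Growth depends on microtubule turnover and on actin at the growth cone. Stathmins (Stmn) bind tubulin dimers and destabilise microtubules, doublecortin (Dcx) stabilises them, and the collapsin response mediator proteins (CRMPs: Crmp1, Dpysl3 and Dpysl5) bind tubulin and relay guidance cues. Gap43 and Marcksl1 are membrane-attached substrates of protein kinase C that act on cortical actin. Gng8 is a G protein gamma subunit that marks immature olfactory and vomeronasal neurons. In polysome profiling, the length of the coding sequence bears on how many ribosomes an mRNA can hold.

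The coding sequences of these genes differ widely in length, so the shortest is printed first. In GENCODE M21 (GRCm38, the mm10 build that the submitters' processing notes name), Gng8 lies at chr7:16891786-16895435 on the plus strand. It encodes 70 residues in 213 nt, with start and stop codon in capitals:
Gng8: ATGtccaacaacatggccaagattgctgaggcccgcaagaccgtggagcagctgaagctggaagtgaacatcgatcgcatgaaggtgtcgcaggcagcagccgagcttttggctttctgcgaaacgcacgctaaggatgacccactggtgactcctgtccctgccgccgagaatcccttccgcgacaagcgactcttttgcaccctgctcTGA

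The 3 stathmins share most of their coding sequence, with 72.2% identical bases between Stmn1 and Stmn2 over 432 aligned bases, 70.9% between Stmn1 and Stmn4 over 433, and 68.0% between Stmn2 and Stmn4 over 534. Stmn1 (chr4:134468320-134473843, plus strand) encodes 149 residues. Stmn2 (chr3:8509360-8561606, plus strand) and Stmn4 (chr14:66344304-66361680, plus strand) encode 179 and, in the principal transcript, 189 residues, with an added membrane-targeting start that Stmn1 lacks. The first 120 bases of each coding sequence are shown, start codon in capitals, because the family is the most divided of those below:
Stmn1: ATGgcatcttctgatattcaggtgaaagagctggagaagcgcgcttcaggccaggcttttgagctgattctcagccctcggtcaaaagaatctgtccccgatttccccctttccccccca
Stmn2: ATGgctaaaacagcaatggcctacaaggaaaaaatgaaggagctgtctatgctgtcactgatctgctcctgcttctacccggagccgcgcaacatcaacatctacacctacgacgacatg
Stmn4: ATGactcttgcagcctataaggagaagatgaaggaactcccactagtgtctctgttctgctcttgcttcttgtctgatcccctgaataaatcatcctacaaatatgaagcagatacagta

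The bases around a start codon are a further feature tied to translation. In the principal transcript, the third base before the start codon was A or G in 9 of the 10 genes, the base that vertebrate start sites favour, against 84.6% of 20336 coding genes. A G directly after the start codon was present in 4 of 10, against 49.6%. Gng8 was the exception at the third base before the start, and its 5′ leader of 635 bases held 6 upstream ATG triplets. Among all coding genes, 54.9% had at least 1 upstream ATG, and 5 of the 10 growth genes had one (Gng8, Stmn1, Stmn2, Stmn4 and Dpysl5). Contexts from 9 bases ahead of the start codon, in capitals, to the codon after it are shown for Gng8 and for 3 genes of other families:
Gng8: actgttcccATGtcc
Gap43: gataccaccATGctg
Marcksl1: acccccatcATGggc
Dcx: caccaaaatATGgaa

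All 10 genes were abundant. Mean deposited TPM over the 8 libraries ran from 105 in Crmp1 to 1081 in Stmn1, above 91.2% and 99.6% of the 21765 rows. Between 170 and 16604 inferred reads lay behind each value. In WT early polysomes the order was Stmn1, Marcksl1, then Stmn2 and Gap43 with overlapping libraries, Dpysl3, Gng8, Stmn4, Dcx, Dpysl5 and Crmp1. In WT late polysomes Stmn1 (699 and 801 TPM) and Stmn2 (584 and 711) overlapped at the top, Dpysl3 (556 and 626) overlapped with Stmn2 and Gap43 (451 and 569), and Gng8 was last. Marcksl1 thus went from the second place in early to the fifth in late WT polysomes. Together the 10 genes made up 0.434% and 0.443% of TPM in the WT early libraries and 0.404% and 0.378% in the WT late libraries. In cKO their share was 0.405% and 0.425% of early and 0.347% and 0.344% of late polysomes.

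**Figure D1:**
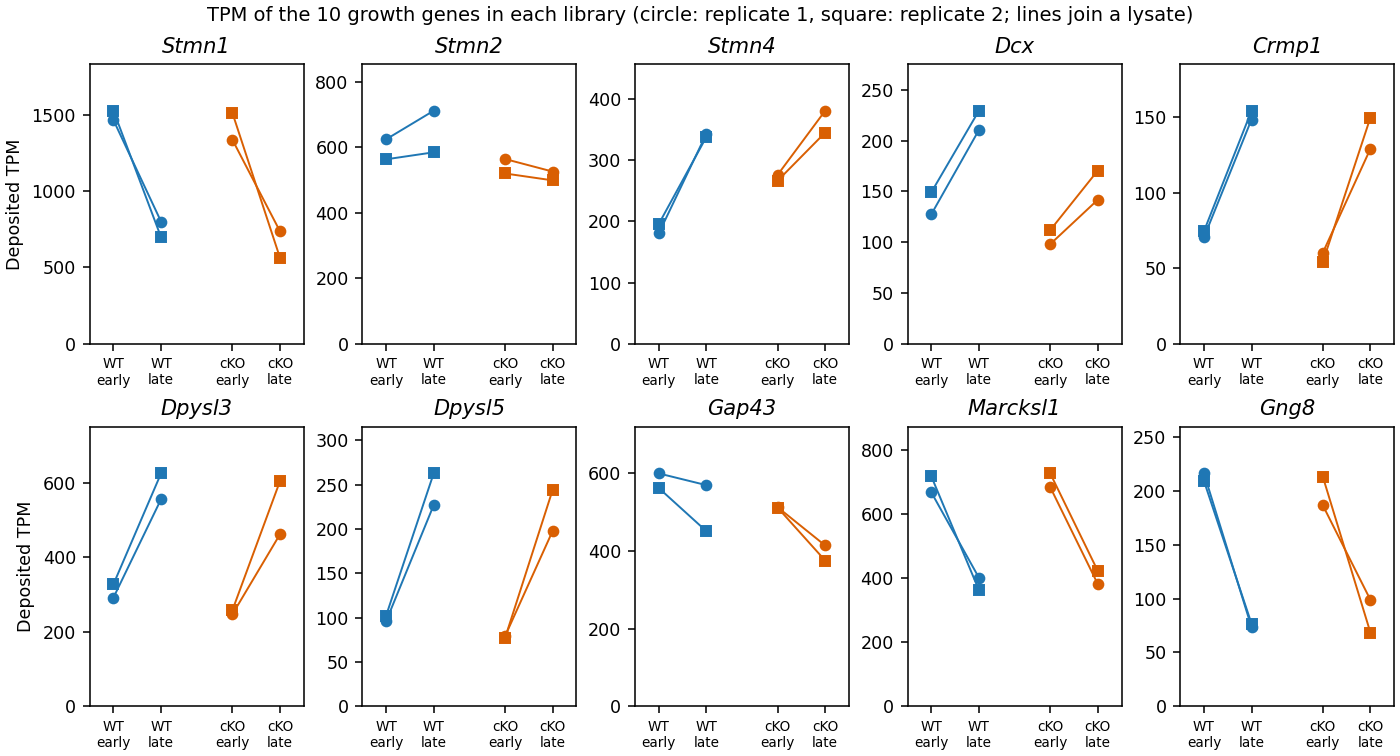
Deposited TPM (linear axes from 0) of the 10 growth genes in each library, with circles for replicate 1, squares for replicate 2 and lines joining the early and late library of a lysate (blue WT, orange cKO). Stmn4, Dcx and the CRMP genes climb from early to late in all 4 lysates, while Stmn1, Marcksl1 and Gng8 drop.

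The first comparison asked which of these mRNAs sit on heavier polysomes. TPM is a share within each library, so a difference between fractions is a difference of shares, given here as late minus early log2(scaled TPM + 1) with libraries scaled by median ratios. On average over genotypes 9 of 10 growth genes were called by limma (adjusted p under 0.05), with 5 higher and 4 lower in late polysomes. Over all genes tested, 68.9% passed, 34.3% higher and 34.6% lower, which is the background to the count of 9. The 4 late libraries were all above the 4 early ones for 4 growth genes and all below for 3, where 62.5% of all genes did not overlap (31.5% higher, 30.9% lower). The median change was 0.20 for the 10 genes and -0.011 for all genes tested. What set the 10 apart from one another was direction: CRMPs, Dcx and Stmn4 rose, and Gng8, Stmn1, Marcksl1 and Gap43 fell. Without scaling, the median of all genes in the cKO comparison moved from -0.0055 to 0.10, and no called direction among the 10 changed.

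The CRMP genes rose together. Dpysl5 (chr5:30711564-30799375, plus strand), whose product is also called CRMP5, had 96.0 and 102 TPM in WT early against 227 and 263 TPM in WT late libraries. In cKO it had 79.0 and 76.8 TPM in early against 198 and 244 in late libraries. Late libraries were above early libraries in all 4 lysates, with no overlap, and the change of 1.27 log2 (SE 0.08, adjusted p = 1.88e-05), or 2.41-fold, was the largest rise of the 10. Crmp1 (chr5:37242080-37292133, plus strand) had 70.4 and 74.5 TPM in WT early and 148 and 154 in WT late libraries. Its cKO libraries had 60.2 and 54.0 TPM in early and 129 and 150 in late polysomes. The change of Crmp1 was 1.05 log2 (SE 0.07, adjusted p = 1.88e-05).

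Dpysl3 (chr18:43320984-43438286, minus strand), which encodes CRMP4 and was the most abundant of the 3, had 292 and 328 TPM in WT early and 556 and 626 TPM in WT late libraries. In cKO it had 247 and 258 TPM in early and 462 and 605 TPM in late libraries. The rise was 0.88 log2 (SE 0.10, adjusted p = 8.79e-05). Its coding sequence had 71.2% identical bases with Crmp1 and 60.5% with Dpysl5, and Crmp1 had 58.3% with Dpysl5. The other CRMP genes in the table, Dpysl2 and Dpysl4, also rose, by 0.65 (SE 0.07, adjusted p = 0.000106) and 0.88 log2 (SE 0.13, adjusted p = 0.00049). Thus 5 of 5 family genes were called higher in late polysomes, where 34.3% of all genes tested were. Tested coding genes of 1590 to 1944 nt had a median of 0.29 and a 75th percentile of 0.66. Dpysl2 (1719 nt) lay below that percentile and Dpysl4 (1782 nt) above it.

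Dcx (chrX:143855842-143933311, minus strand) had 127 and 149 TPM in WT early and 210 and 229 in WT late libraries. In cKO it had 98.0 and 112 TPM in early and 142 and 170 in late libraries. Late exceeded early in each of the 4 lysates, although the lower cKO late library lay below the higher WT early library. The rise was 0.50 log2 (SE 0.09, adjusted p = 0.00127). Dclk1, which encodes a doublecortin-like kinase, rose by 0.57 (SE 0.08, adjusted p = 0.000219).

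The stathmins did not change alike. Stmn1, expressed in many proliferating and newly born cells, had 1466 and 1528 TPM in WT early and 801 and 699 TPM in WT late libraries. In cKO it had 1338 and 1515 TPM in early against 738 and 565 in late libraries, so all early libraries were above all late ones. Its change was -1.19 log2 (SE 0.12, adjusted p = 6.23e-05), leaving 0.44 times the early level. Stmn4 did the opposite, with 180 and 196 TPM in WT early and 343 and 338 TPM in WT late libraries. In cKO, Stmn4 had 276 and 267 TPM in early and 381 and 346 TPM in late libraries, and its change was 0.52 log2 (SE 0.07, adjusted p = 0.000338).

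Stmn2, the neuronal stathmin also known as SCG10, did not pass. In WT it had 624 and 563 TPM in early against 711 and 584 in late libraries. In cKO it had 564 and 520 TPM in early against 526 and 499 in late libraries, and the fractions overlap. Its change was -0.096 log2 (95% interval -0.31 to 0.12, adjusted p = 0.384), and the sign turned to 0.020 without scaling and to 0.15 under quantile normalization. Over the 4 lysates the late minus early difference lay between -1.59 and -0.94 for Stmn1, between -0.23 and 0.10 for Stmn2 and between 0.20 and 0.84 for Stmn4, so the 3 ranges did not overlap. Stmn3, the remaining stathmin in the fixed list, had a change of -0.20 (SE 0.08, adjusted p = 0.0399).

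Gap43 and Marcksl1, the protein kinase C substrates, were both lower in late polysomes. Marcksl1 (chr4:129513581-129515985, plus strand) had 667 and 717 TPM in WT early and 401 and 363 TPM in WT late libraries. In cKO it had 684 and 726 TPM in early and 382 and 422 in late libraries, and its change was -0.95 log2 (SE 0.08, adjusted p = 3.08e-05). Its relative Marcks, with a coding sequence of 930 nt against 603 nt, rose by 0.79 (SE 0.16, adjusted p = 0.00249). That is above genes of like length, since tested coding genes of 786 to 945 nt had a median of -0.28 and a 75th percentile of 0.10. Gap43 (chr16:42248442-42340651, minus strand) fell less. In WT it had 599.6 and 562 TPM in early against 569 and 451 in late libraries. In cKO the values were 513 and 512 TPM in early against 414 and 375 in late libraries.

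The Gap43 change was -0.40 log2 (SE 0.10, adjusted p = 0.0061), with late below early in 4 of 4 lysates and overlap between the pooled fractions. Under quantile normalization it was -0.13 (adjusted p = 0.274), which ended the call. Gng8 had the largest fall. It had 216 and 209 TPM in WT early and 73.5 and 76.7 TPM in WT late libraries, and 186 and 213 TPM in cKO early against 98.8 and 68.5 TPM in cKO late libraries. Its change of -1.49 log2 (SE 0.12, adjusted p = 2.65e-05) left 0.355 times the early level.

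**Figure D2:**
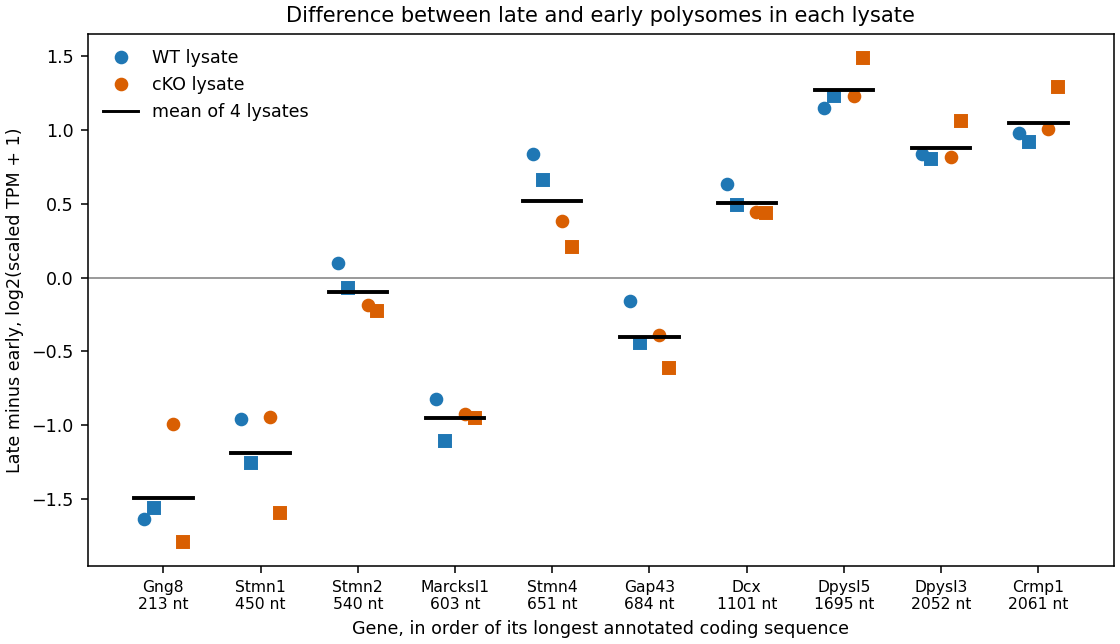
Late minus early difference in log2(scaled TPM + 1) of each growth gene in each of 2 WT (blue) and 2 cKO (orange) lysates (circle replicate 1, square replicate 2), with the mean of 4 lysates as a bar and genes in order of coding length. Means run from -1.49 in Gng8 to 1.27 in Dpysl5.

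Read within one genotype, 8 of 10 growth genes passed in WT (5 higher, 3 lower), where 54.8% of all genes did (27.1% higher, 27.7% lower). In cKO 9 of 10 passed (5 higher, 4 lower), where 58.1% of all genes did (28.9% higher, 29.2% lower). Gap43 was the gene called in cKO (-0.50, SE 0.14, adjusted p = 0.0142) and not in WT (-0.30, SE 0.14, adjusted p = 0.0968). Its interaction of genotype and fraction was -0.20 (SE 0.20, adjusted p = 1.0). The cKO call of Gap43 was lost in 3 of 18 alternatives (adjusted p from 0.0616 to 0.255), and in WT Gap43 passed without WT late replicate 1 (0.0356) and with voom on inferred reads (0.045). The Dcx call in cKO was lost without cKO early replicate 1 (adjusted p = 0.102) or cKO late replicate 2 (0.105). Without any 1 library, 7 to 8 growth genes passed in cKO. The Stmn4 rise was 0.75 in WT (SE 0.11, adjusted p = 0.000832) and 0.29 in cKO (SE 0.11, adjusted p = 0.0418). The cKO call of Stmn4 was lost in 10 of 18 alternatives, among them the fit with lysate as a replicate block (adjusted p = 0.0671).

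The order of the changes was set beside coding length. Across 14646 tested genes with an annotated coding sequence, the late minus early change and the longest coding sequence correlated at Spearman's rho = 0.633. For the 10 growth genes rho was 0.879, between 0.879 and 0.903 in single lysates, and 0.830 with the principal transcript, all as descriptions over genes that share the same libraries. The 3 CRMP genes have the longest coding sequences (1695, 2052 and 2061 nt), followed by Dcx (1101), Gap43 (684), Stmn4 (651), Marcksl1 (603), Stmn2 (540), Stmn1 (450) and Gng8 (213).

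Within bins of like coding length the growth genes did not all sit at the middle. Stmn4 was 1.15 log2 above the median of its bin (0.52 against -0.63) and Stmn2 1.02 above (-0.096 against -1.12). Dpysl5 was 0.99, Crmp1 0.68, Dcx 0.65 and Dpysl3 0.51 above their bins' medians, and these 6 genes lay above the 75th percentile of their bins. Stmn1 was 0.067 under the median of its bin (difference -0.067) and Gap43 0.23 above it, both inside the middle 50%. Marcksl1 and Gng8 lay below the 25th percentile, at -0.32 and -0.37 from the median. Gng8 is much shorter than the median of 417 nt in its bin, so this reading is loose for it. It is also loose for Stmn2 and Dcx, at the upper edges of their bins (558 and 1104 nt). The bin above that of Stmn2 had a median of -0.63 and a 75th percentile of -0.26. The bin above that of Dcx had a median of 0.011 and a 75th percentile of 0.498, beside 0.501 for Dcx. Position against length was read with the same values as the changes and was not tested.

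**Figure D3:**
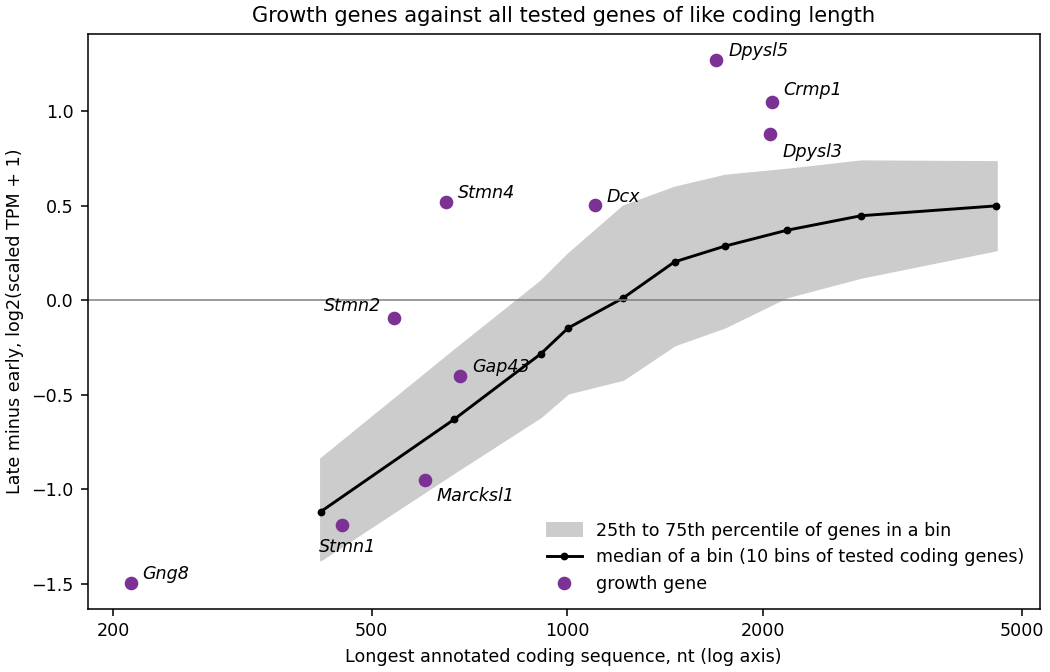
Late minus early change in log2(scaled TPM + 1) against the longest annotated coding sequence (log axis), with purple points for the 10 growth genes and, over 10 bins of tested coding genes, the median (black) and the 25th to 75th percentile (grey). Stmn2 and Stmn4 stand more than 1 log2 above the medians of their bins, with Stmn2 at the upper edge of its bin. Stmn1 lies close to the median of its bin.

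Other genes of the same process were read from lists fixed for this purpose. Of 25 other growth cone genes, 19 rose and 5 fell in late polysomes, with a median of 0.65. Over all genes tested, 34.3% rose and 34.6% fell. The largest rises by rule were Fscn1, an actin bundler (0.97, SE 0.11, adjusted p = 7.98e-05), Dpysl4 (above) and Map1b, a microtubule-associated protein (0.81, SE 0.17, adjusted p = 0.00258). The largest falls were Tmsb10, which binds actin monomers (-1.80, SE 0.24, adjusted p = 0.000219), Pfn2, a profilin (-1.33, SE 0.12, adjusted p = 3.62e-05), and Basp1, a membrane protein akin to Gap43 (-0.96, SE 0.08, adjusted p = 2.65e-05). The coding sequences of these 3 falling genes are 204, 423 and 681 nt long, and those of the 3 rising genes 1482, 1782 and 7395 nt. The rest of the list was not strictly ordered by length. Gpm6a (837 nt) changed by 0.78 and Marcks (930 nt) by 0.79, but Rufy3 (2010 nt) by 0.06 and Map2 (5487 nt) by 0.33.

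Of 17 other immature neuron genes, 16 were tested, 5 rose and 8 fell, with a median of -0.19, beside the same 34.3% and 34.6% of all genes. Tubb3, the neuronal beta-tubulin (0.99, SE 0.08, adjusted p = 2.29e-05), Cxcr4, a chemokine receptor (0.91, SE 0.08, adjusted p = 3.17e-05), and Ebf2, a transcription factor (0.76, SE 0.08, adjusted p = 7.73e-05), rose most. Ddit3 (-1.12, SE 0.10, adjusted p = 3.09e-05), Nhlh1 (-0.95, SE 0.07, adjusted p = 2.45e-05) and Atf5 (-0.93, SE 0.12, adjusted p = 0.000211), all transcription factors, fell most.

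The second comparison asked whether these mRNAs change on polysomes when Mex3a is lost. Taking the mean of the early and late value of each lysate (2 WT and 2 cKO), 0 of 10 growth genes were called by limma, where 0.00621% of all genes were. That share is 1 gene, Mex3a itself (-2.67, SE 0.14, adjusted p = 0.0227), so the count of 0 says little about the growth genes. Counts were 0 of 10 in early (0.0435% of all genes) and 0 of 10 in late polysomes (0.0124%). At an unadjusted p under 0.05 were 3 growth genes on lysate means, 4 in early and 2 in late polysomes. Over all 16097 genes tested, 1823, 1069 and 1506 were at that level, in the same order. The voom test from limma, run on inferred reads, called 0 growth genes in each, with 5, 4 and 3 at an unadjusted p under 0.05. Of 16085 genes in that test, voom called 58, 20 and 15, and 2437, 1239 and 1439 were at the unadjusted level. For lysates, voom took the summed early and late reads in place of the mean of log2 values. The median difference of the 10 genes was -0.18 log2 on lysate means, against 0.0014 for all genes tested. This median was smaller in size within fractions, at -0.099 in early and -0.12 in late polysomes, against 0.0054 and -0.00066 for all genes. On lysate means it lay between -0.16 and -0.096 whichever lysate was left out.

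Stmn4 had the largest difference upward. In early polysomes it had 276 and 267 TPM in cKO against 180 and 196 TPM in WT, so both cKO libraries were above both WT libraries. The difference was 0.58 log2 (SE 0.11, 95% interval 0.34 to 0.83, adjusted p = 0.231, between 0.0538 and 1.0 over the alternatives). In late polysomes it was 0.13 (SE 0.11, adjusted p = 0.731), with 381 and 346 TPM in cKO and 343 and 338 in WT. On lysate means it was 0.36 (SE 0.07, 95% interval 0.18 to 0.54, adjusted p = 0.32). Intervals are for 1 gene and are not adjusted for the number of genes. The interaction of Stmn4 was -0.46 (SE 0.15, adjusted p = 1.0), and no growth gene passed in the interaction, where 0.00621% of all genes did. At an unadjusted p under 0.05 was 1 of the 10, Stmn4, beside 459 of all 16097 genes tested. Voom called 0 growth genes with 1 at that level, where it called 0 of 16085 genes with 404 at that level.

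Dcx had the largest difference downward. WT lysates had 127 and 149 TPM in early and 210 and 229 in late libraries, and cKO lysates 98.0 and 112 in early and 142 and 170 in late libraries. Both cKO libraries were below both WT libraries in each fraction. The difference was -0.40 log2 on lysate means (SE 0.10, 95% interval -0.65 to -0.15, adjusted p = 0.362), or 0.759 times WT. It was -0.34 in early (SE 0.13, adjusted p = 0.72) and -0.46 in late polysomes (SE 0.13, adjusted p = 0.377). Over alternatives the adjusted p on lysate means ran from 0.0393 to 0.78.

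The other growth genes differed less between genotypes. Crmp1 (-0.18, 95% interval -0.34 to -0.023), Dpysl5 (-0.20, -0.41 to 0.0033), Dpysl3 (-0.18, -0.43 to 0.076) and Gap43 (-0.22, -0.46 to 0.014) were lower on lysate means at adjusted p of 0.407, 0.447, 0.554 and 0.458. Stmn2 was at -0.18 (-0.43 to 0.063) and Stmn1 at -0.094 (-0.31 to 0.13). Marcksl1 (0.098, -0.091 to 0.29) and Gng8 (0.067, -0.13 to 0.26) had values above 0, and the sign of Gng8 turned without cKO lysate 1 (-0.022). Lysates of the genotypes did not overlap for 8 of 10 genes, 2 higher and 6 lower in cKO, where 43.6% of all genes did not overlap (22.8% higher, 20.8% lower). In early polysomes 1 growth gene was higher and 5 were lower in cKO with no overlap, where 37.1% of all genes did not overlap (19.6% higher, 17.6% lower). In late polysomes these counts were 1 higher and 3 lower, against 40.7% of all genes (20.5% higher, 20.1% lower).

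**Figure D4:**
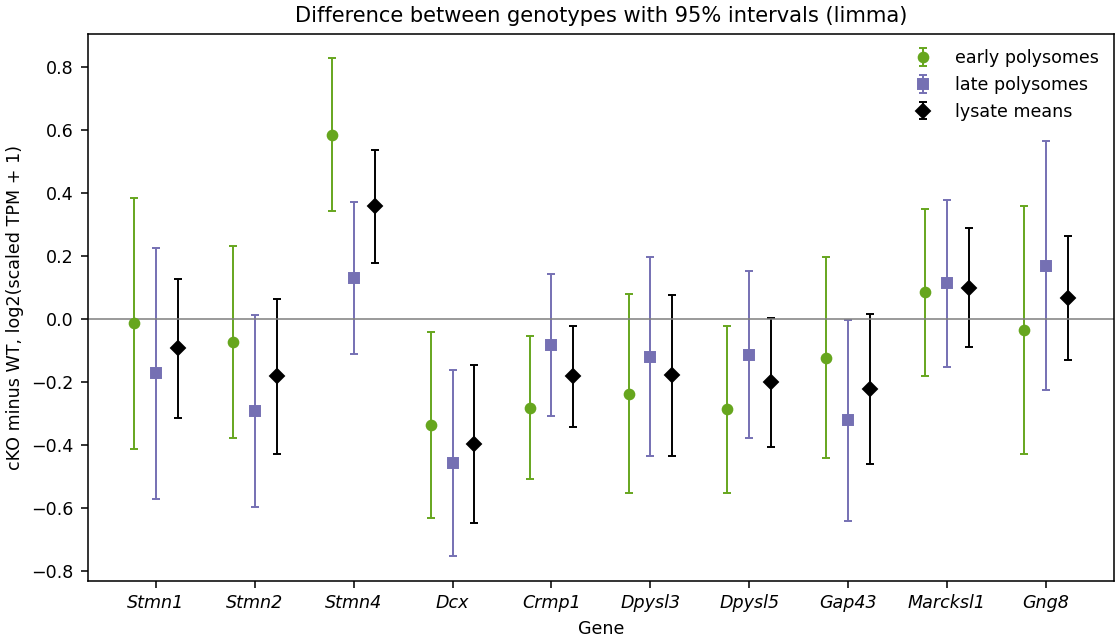
Difference between cKO and WT in log2(scaled TPM + 1) with 95% intervals from limma, in early polysomes (green circles), late polysomes (purple squares) and on lysate means (black diamonds). Stmn4 lies highest and Dcx lowest on lysate means, at 0.36 and -0.40, and no value passed the adjusted threshold.

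Markers of the cells in the tissue were summed beside these values. The 25 other growth cone genes summed to 5457 to 5550 TPM in WT early and 4872 to 4988 in cKO early, and to 5370 to 5598 in WT late and 4775 to 4876 in cKO late libraries; 0 of 25 passed between genotypes on lysate means and the median was -0.20. Mature neuron markers (15 genes) had a median of -0.068, with summed TPM of 16396 to 18802 in WT early, 16619 to 16767 in cKO early, 11497 to 11898 in WT late and 9433 to 10812 in cKO late libraries. Ensheathing glia markers (7 genes, median -0.15) summed to 694 to 875 TPM in WT early, 622 to 685 in cKO early, 729 to 872 in WT late and 612 to 627 in cKO late libraries. Olfactory bulb and brain markers (9 genes) had a median of -0.38. Their sums were 167 to 198 TPM in WT early and 147 to 179 in cKO early libraries. In late libraries the sums were 283 to 286 TPM in WT and 289 to 323 in cKO. Most of this was Aqp4, whose difference on lysate means was 0.099, so the sums do not show the other genes. Mean TPM was 2.40 in Gad1, 1.15 in Slc32a1, 1.66 in Tbr1, 1.06 in Th, 6.62 in Eomes, 4.57 in Slc17a7 and 2.69 in Gfap. Their differences on lysate means were -0.69, -0.47, -0.10, -0.85, -0.38, -0.83 and -0.36, in that order. Mbp, at a mean of 26.3 TPM, was at -0.010. Medians of the other lists lay on both sides of 0. The median was -0.045 for other immature neuron genes (16 tested), -0.076 for horizontal basal cells (4), 0.019 for progenitors (10), 0.038 for sustentacular cells (6), 0.11 for immune cells (3) and 0.20 for glands (3). Every listed marker in the table was above 0 in all 8 libraries, and 0 passed between genotypes on lysate means. The part of cell makeup in the genotype differences of Dcx and Stmn4 was not tested.

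Genes whose log2 values over the 8 libraries were most like those of Gap43, among 8644 genes with a mean scaled TPM of at least 20, were Tfpt (Pearson's r = 0.982), S100z (0.973) and Eif2s2, a subunit of translation initiation factor eIF2 (0.967). For Dcx they were Cpeb1, a cytoplasmic polyadenylation factor (r = 0.988), Lclat1 (0.984) and Mapk10, a neuronal kinase (0.980). Among the growth genes, Stmn1 was nearest to Gap43 (0.870) and Dpysl3 nearest to Dcx (0.878). These values are descriptions over libraries that share 4 lysates, and the parts of fraction and genotype in them were not separated.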

How the data were processed

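The authors deposited 1 table of TPM with a column for each of the 8 libraries, each summing to 1000000. The submitters' processing notes name FastQC, cutadapt, STAR, DESeq2 and the mm10 build, without roles; the counting method and annotation are not given in the sources used here. Per the labels' protocols, 50 µL of each fraction was pooled and stranded total RNA libraries were made with a low-input kit, while the use of strand in counting is not given in the sources used here.

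Libraries were brought to a common level with median ratios, between 0.931 and 1.06. For 16097 genes of mean TPM at least 1, limma (3.58.1, R 4.3.3) was fitted with a mean-variance trend to log2 of scaled TPM plus 1. Fold changes on this scale understate those of low genes. All 4 groups were fitted together, and p-values are two-sided with Benjamini-Hochberg adjustment over all genes. The main fit between fractions did not pair the early and late library of a lysate, which was done only as an alternative. TPM states no depth: whole reads were inferred from the steps of each gene's values (tolerance 0.001) for 19783 genes above 0 in at least 2 libraries. On simulated libraries 98.9% of 19397 genes came back exactly. On simulated data of 14674 genes with 200 changed 3-fold, limma recovered 200 in late against early and 200 between genotypes on lysate means, with 15 and 13 false calls. The simulated reads had the same dispersion setting for all genes and no effect shared by a lysate or replicate number. Genotype differences of the growth genes were smaller than 3-fold. Changes of that size were not simulated, so their recovery is not known.

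Library names pair the early and late library of a lysate, whose deviations from group means correlated at 0.0862 (WT) and 0.0502 (cKO). Coding lengths and sequences came from GENCODE M21. Named genes were the 10 members, Mex3a, up to 3 rising and 3 falling called genes of each growth or immature neuron list, and the 3 genes most like Gap43 and Dcx in pattern. Dpysl2, Dclk1, Marcks and Stmn3 were named as family relatives after their values were seen. Gpm6a, Rufy3 and Map2 were likewise named outside the rule, as examples against an order by length, after their values were seen. Members and lists were chosen with earlier results of these data known. Alternatives were other pseudocounts (0.1, 0.5), filters (none, 5), scalings, no trend, voom on inferred reads, replicate blocks, fewer libraries and lysate as a random effect. Figures were drawn with matplotlib 3.10.9.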

Additional observations from a re-analysis of the deposited data

How the results depend on the processing

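Of 1201 values under the alternatives, 1158 kept direction and side of the threshold. The 1201 include 1 rank correlation of the growth genes with coding length, which moved from 0.879 to 0.830. Several alternatives cannot change the log2 value of a gene, such as other filters, no trend or omission of libraries outside the comparison. The 1158 is therefore not a measure of robustness. The number of growth genes called in late against early polysomes stayed at 9 without any 1 library (9 also without the WT early library of the conflicting label), and ranged from 8 to 9 in WT and 7 to 8 in cKO. With the replicate number as a replicate block, 1 growth gene passed between genotypes on lysate means, Dcx (adjusted p = 0.0393); numbers of WT and cKO are not said to share a batch, and with the block 82 genes passed in place of 1. Same-numbered WT and cKO libraries deviated together at 0.331 in early and 0.142 in late polysomes. With lysate as a replicate block between fractions, the Stmn4 call in cKO was lost and no other call of a growth gene changed. The cause of the following changes was not tested. Late against early, Stmn2 turned to 0.020 without scaling and 0.15 under quantile normalization, to 0.058 in cKO under quantile normalization, and ran from -0.14 to 0.16 in WT without single libraries. The Gap43 call in cKO was lost without cKO early or cKO late replicate 2 (adjusted p = 0.0616 and 0.0837) and under quantile normalization (0.255). Between genotypes, signs of values near 0 turned: Stmn1 on lysate means with voom (0.0067), Marcksl1 in early polysomes under quantile normalization (-0.0074), and, without single libraries or lysates, Gng8 on lysate means (-0.022 to 0.15), in early (-0.15 to 0.075) and in late polysomes (-0.12 to 0.46), Stmn1 in early (-0.12 to 0.090) and late (-0.39 to 0.046), Dpysl3 in late (-0.29 to 0.047) and Dpysl5 in late polysomes (-0.24 to 0.0095). In the interaction, ranges without single libraries were -0.083 to 0.49 for Gng8, -0.38 to 0.061 for Stmn1, -0.050 to 0.28 for Dpysl3, -0.054 to 0.11 for Marcksl1 and -0.24 to 0.0021 for Dcx. Coding length from RefSeq proteins was not run, and the principal transcript, used in its place, was chosen after seeing the data. The fewest inferred reads behind a value were 170, for Gng8 in cKO late replicate 2; counting error was not set against the spread between replicates.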

Other observations

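Marker lists of the other cells of the tissue were counted between fractions, where 68.9% of all genes tested passed (34.3% higher and 34.6% lower in late polysomes). In late polysomes 11 of 15 mature neuron markers rose and 4 fell (median 0.48), with Adcy3, the adenylyl cyclase of odorant signalling, at 1.58 (SE 0.12, adjusted p = 2.17e-05 by limma) and Omp at -0.83 (SE 0.16, adjusted p = 0.00166). Of 10 progenitor markers 7 rose and 0 fell (median 0.41), as did 3 of 4 horizontal basal cell markers (median 0.86) and 3 of 3 gland markers (median 0.74). Of 6 sustentacular cell markers 5 rose and 1 fell (median 1.07), of 7 ensheathing glia markers 3 rose and 2 fell (median 0.21), and of 9 olfactory bulb and brain markers 3 rose and 1 fell (median 0.49). The share that passed was below that of all genes for the bulb and brain list (4 of 9) and the immune list (1 of 3). Among 3 immune markers 0 rose and 1 fell (median 0.11). Adcy3 and Omp were named after their values were seen.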
